A study of Drosophila melanogaster with 28 samples.

Results

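The mitochondrial ribosomal protein genes of the fly were examined for HMR peaks in 18 deposited ChIP-seq lists from SL2 cells. Members were all nuclear genes of the dm6 annotation whose symbol starts with mRpL (large subunit) or mRpS (small subunit). There were 73 of them among 13968 protein-coding genes, 47 mRpL and 26 mRpS. A gene counted as having a peak in a list when the nearest edge of a peak lay within 500 bp of any of its annotated transcript starts.

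HMR (Hybrid male rescue) is a fast-evolving chromatin protein that takes part in the death of hybrid males between Drosophila melanogaster and Drosophila simulans. SL2 is an established embryonic cell line of Drosophila melanogaster, and all lines used here carried FLAG-HA-tagged HMR behind the copper-inducible metallothionein promoter (pMT), together with Myc-LHR according to the study's methods. In HMRdC-tg cells the tagged protein lacked the C terminus, and in HMRwt-tg cells it was full length. Anti-FLAG was used on 5 HMRdC-tg and 5 HMRwt-tg chromatin preparations, and anti-HMR on 4 HMRdC-tg and 4 HMRwt-tg preparations.

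All cells were stably transfected, selected with hygromycin B and induced for 20 to 24 h with 250 µM CuSO4, and all kept their endogenous Hmr gene. Anti-FLAG therefore saw the transgenic protein alone, while anti-HMR could also see endogenous HMR. The constructs describe an excess of HMR, not its normal dose, and no list from uninduced or untransfected cells was analysed here. Each pair of a construct and an antibody is named by both, and replicate numbers are only names. The 8 anti-HMR libraries came from chromatin that was also used for an anti-FLAG library. Replicate 5 of both anti-FLAG groups was made with another library kit (NEBNext) than the rest.

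The mitochondrial ribosome translates the few messages of the mitochondrial genome, which code for core subunits of the respiratory chain. Its RNAs are encoded in the organelle, whereas its proteins are encoded in the nucleus, made in the cytosol and imported. Many of these proteins descend from bacterial ribosomal proteins and others were added in mitochondria, and their genes are active in most growing cells. In mammals, the proteins named MRPS30 and MRPS18A were found in the large subunit, so the symbol does not always give the place in the ribosome.

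The lists held 465 to 9049 peaks each, all but 1 of them 200 bp wide, and give no height, so that the only order is that of the lines. Place in a list is given as a percent of its lines, so that the last line has place 100 and low values are near the top. None of the lists was sorted by position. The places of genes correlated between anti-FLAG lists with a Spearman rho of 0.65 to 0.95 over 45 pairs of lists, and between anti-HMR lists with 0.29 to 0.91 over 28 pairs, so a place says less in the anti-HMR lists. Sequencing depth is unknown. List length differed between HMRdC-tg and HMRwt-tg by less than the spread in both antibodies (means 2098 and 2447 peaks, p = 0.690 for anti-FLAG, and 2212 and 3638 peaks, p = 0.771 for anti-HMR, exact two-sided permutation tests, smallest possible p 0.00794 and 0.0286). HMRwt-tg replicate 2 of the anti-FLAG group was the shortest list (465 peaks), and HMRwt-tg replicate 3 of the anti-HMR group the longest (9049 peaks). Of the genes carried by the constructs, Hmr had a peak in 0 of 18 lists and Lhr in 4 of 10 anti-FLAG and 1 of 8 anti-HMR lists. MtnA, the metallothionein gene looked up for the promoter of the constructs, had a peak in all 18. The part of reads from the constructs in these peaks was not tested.

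The sequences around the median peak position of 6 of the 9 members with a peak in at least 14 lists are shown first. They are followed by the region upstream of mRpL10, which had no peak in any list. Each is read 5′ to 3′ on the strand of the member from the RefSeq genome (dm6), is centred on the median midpoint of the peaks (for mRpL10 it ends just past the start) and was shortened where it would run into an exon. At mRpS7, mRpS6 and mRpL3 the stretch does not lie under the peak of every list with a peak. Capitals mark CGATA, the core of the site of the insulator protein BEAF-32, and GGTCACAC, the core of the promoter element motif 1, on either strand. The stretches are chr2L:18859244-18859443 (mRpL13, minus strand), chr3R:9515894-9516021 (mRpL47, minus), chr2L:10386248-10386447 (mRpS7, plus), chr3L:4364088-4364241 (mRpS6, plus), chrX:4322409-4322608 (mRpL33, minus), chrX:15761043-15761242 (mRpL3, plus) and chr2L:203589-203788 (mRpL10, plus).
mRpL13: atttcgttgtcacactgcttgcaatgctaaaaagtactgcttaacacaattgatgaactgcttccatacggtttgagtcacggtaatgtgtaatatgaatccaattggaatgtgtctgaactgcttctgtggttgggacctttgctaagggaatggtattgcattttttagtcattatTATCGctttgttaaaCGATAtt
mRpL47: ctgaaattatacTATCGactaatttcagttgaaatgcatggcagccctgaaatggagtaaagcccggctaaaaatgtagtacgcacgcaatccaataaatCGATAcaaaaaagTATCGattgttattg
mRpS7: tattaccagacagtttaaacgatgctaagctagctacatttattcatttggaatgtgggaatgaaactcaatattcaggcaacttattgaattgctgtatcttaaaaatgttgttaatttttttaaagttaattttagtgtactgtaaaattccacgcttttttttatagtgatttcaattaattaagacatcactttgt
mRpS6: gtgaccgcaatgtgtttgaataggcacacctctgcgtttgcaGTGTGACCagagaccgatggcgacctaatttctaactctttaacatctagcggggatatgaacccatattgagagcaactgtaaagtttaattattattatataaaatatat
mRpL33: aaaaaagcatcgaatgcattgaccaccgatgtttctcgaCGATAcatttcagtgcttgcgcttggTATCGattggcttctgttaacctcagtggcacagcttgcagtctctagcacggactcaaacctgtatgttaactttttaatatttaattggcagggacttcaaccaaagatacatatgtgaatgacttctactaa
mRpL3: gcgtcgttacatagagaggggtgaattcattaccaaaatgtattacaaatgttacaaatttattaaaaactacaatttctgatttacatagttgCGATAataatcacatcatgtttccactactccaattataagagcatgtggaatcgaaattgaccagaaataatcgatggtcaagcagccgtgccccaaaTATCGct
mRpL10: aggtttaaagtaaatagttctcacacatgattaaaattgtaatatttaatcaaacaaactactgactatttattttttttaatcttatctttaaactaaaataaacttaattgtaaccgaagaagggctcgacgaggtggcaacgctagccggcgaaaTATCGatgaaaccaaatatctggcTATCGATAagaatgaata

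The 7 stretches did not share a motif among those searched. CGATA occurred in 2 copies at mRpL13, 3 at mRpL47, 2 at mRpL33 and 2 at mRpL3, but in 0 copies at mRpS7 and mRpS6, while the mRpL10 stretch, without a peak in any list, held 3. Among these stretches, GGTCACAC occurred in 1 copy at mRpS6 alone. In the full 200 bp around the median midpoint, not shortened at exons, mRpS6 held 2 copies. Of the members whose stretches are not shown, mRpL34 and mRpS16 held 1 copy each in that window and mRpL1 held 0.

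Over the whole set, 25 of 73 members (34.2%) had a peak in at least 5 of 10 anti-FLAG lists, where the share over all protein-coding genes was 19.8%. With anti-HMR, 16 of 73 members (21.9%) had a peak in at least 4 of 8 lists, and 13.8% of all protein-coding genes. This count fell to 10 members (13.7%) without HMRwt-tg replicate 1 and to 10 (13.7%) without HMRwt-tg replicate 3, when 11% and 10.6% of all protein-coding genes were called. A peak in at least 1 of the 18 lists was found at 53 members (72.6%) against 43.0% of all protein-coding genes. The median member had a peak in 1 of 10 anti-FLAG lists and in 1 of 8 anti-HMR lists, and the median protein-coding gene in 0 of either. Most members thus had a peak in few lists, and 20 members (27.4%, against 57.0% of all protein-coding genes) had no peak in any list.

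Genes of the large and the small subunit were counted apart. Of the mRpL genes, 15 of 47 (31.9%) had a peak in at least 5 anti-FLAG lists and 11 (23.4%) in at least 4 anti-HMR lists. Of the mRpS genes, 10 of 26 (38.5%) and 5 of 26 (19.2%) did so. The order of the subunits turned round between the antibodies, and no difference between them was tested.

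In single lists the share of members with a peak was between 2.74% and 58.9%. In anti-FLAG HMRdC-tg replicates 1 to 5, 34, 17, 17, 28 and 12 members had a peak, where the background was 27.7%, 15.9%, 15.9%, 22.8% and 9.35% of all protein-coding genes. In anti-FLAG HMRwt-tg replicates 1 to 5 the numbers were 21, 2, 24, 43 and 27, beside 19.5%, 3.44%, 19.4%, 34.3% and 20.5%. Anti-HMR gave 28, 12, 6 and 13 members in HMRdC-tg replicates 1 to 4, beside 23.4%, 9.87%, 6.49% and 13.1%. It gave 27, 4, 39 and 8 members in HMRwt-tg replicates 1 to 4, beside 18.3%, 4.98%, 33.7% and 9.14%. The shortest list held 2 members and the pair of longest lists 43 and 39. The share of members was above the share of all protein-coding genes in 17 of the 18 lists. The exception was anti-FLAG HMRwt-tg replicate 2, with 2.74% of members and 3.44% of all protein-coding genes.

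**Figure D1:**
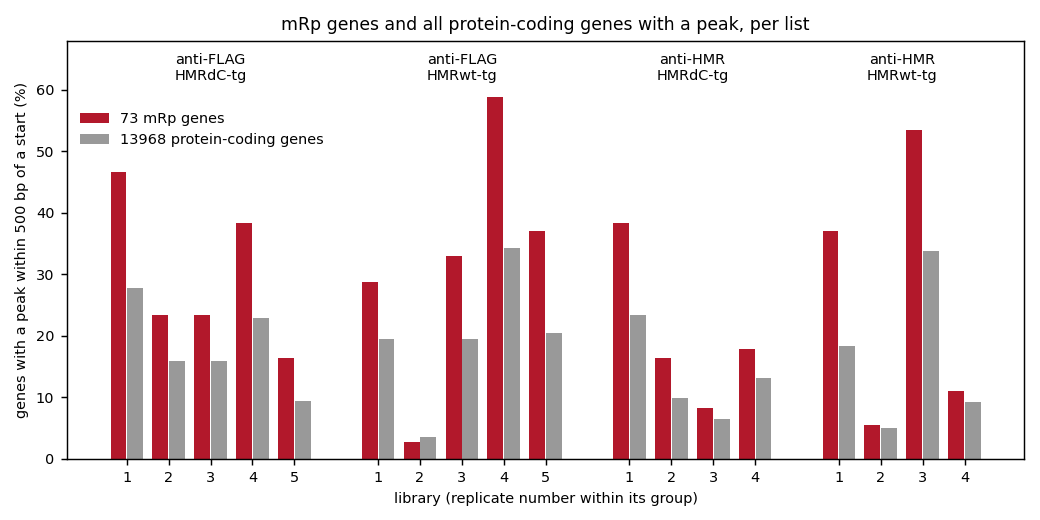
Percent of the 73 mRp genes (red) and of the 13968 protein-coding genes (grey) with a peak within 500 bp of a start, for each of the 18 lists by antibody and construct, with 1 pair of bars per library. The red bar is the higher one in every list except anti-FLAG HMRwt-tg replicate 2 (2.74% and 3.44%), and bars of both colours differ more between replicates than between constructs.

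Among large subunit genes, mRpL13 was the member with the most regular peak and the only one in all 18 lists, which held for 0.838% of all protein-coding genes. It codes for a counterpart of a bacterial protein of early large subunit assembly. The peak stood at places 0.420 to 1.47 in the 5 anti-FLAG HMRdC-tg lists, against 1.14 to 5.6 in the 5 anti-FLAG HMRwt-tg lists, and so near the top in all of them. It stood at 3.08, 15.6, 32.1 and 4.36 in the anti-HMR HMRdC-tg lists, against 11.7, 38.8, 1.67 and 8.29 in the anti-HMR HMRwt-tg lists. Its midpoint lay 66 to 136 bp upstream of the mRpL13 start, which the gene shares with 1 of the starts of CG10602 on the same strand, so that the peak cannot be given to either gene alone.

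mRpL47, whose bacterial counterpart sits at the exit of the peptide tunnel, had a peak in 10 of 10 anti-FLAG and 7 of 8 anti-HMR lists. Its anti-FLAG places were 2.58, 4.82, 4.70, 3.01 and 11.2 in HMRdC-tg, against 6.50, 28.7, 8.71, 4.04 and 12.0 in HMRwt-tg, and the values of the constructs overlapped. The 28.7 belongs to the shortest list, in which mRpL13 and mRpL47 were the 2 members found. Its midpoints lay 26 to 110 bp upstream, and the start of CG8176 on the other strand was 99 bp away.

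mRpL1 codes for the protein of the mobile stalk that lines the exit of tRNAs, as known from bacteria. It had a peak in 5 of 5 anti-FLAG HMRdC-tg and 4 of 5 anti-FLAG HMRwt-tg lists, and in 3 of 4 lists of either construct with anti-HMR, always 22 to 82 bp upstream. mRpL34 was found in 5 of 5 HMRdC-tg and 4 of 5 HMRwt-tg lists with anti-FLAG, and in 4 of 4 HMRdC-tg and 2 of 4 HMRwt-tg lists with anti-HMR. mRpL33 had 5 HMRdC-tg and 4 HMRwt-tg lists with anti-FLAG, and 2 HMRdC-tg and 3 HMRwt-tg lists with anti-HMR. The list missing for mRpL1, mRpL34 and mRpL33 in anti-FLAG HMRwt-tg was the same one, the shortest.

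mRpL3, whose bacterial counterpart reaches towards the peptidyl transferase centre, stood in the lower part of all but 1 of its lists. It had a peak in 4 of 5 lists of each construct with anti-FLAG and in 3 of 4 of each with anti-HMR, and its anti-FLAG places were 72.1 to 99.3. Its anti-HMR places were 66.1, 95.0 and 93.4 in HMRdC-tg, against 72.4, 27.4 and 94.8 in HMRwt-tg. The midpoints fell into 2 separate stretches, 408 to 484 bp upstream in 6 lists, and from 122 bp upstream to 12 bp downstream in the other 8. The far stretch lay next to the start of Graf, 515 bp from that of mRpL3 on the opposite strand.

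The remaining large subunit genes named in full had fewer lists. mRpL53, a protein found in mitochondrial ribosomes alone, was in 9 anti-FLAG and 4 anti-HMR lists, mRpL16 and mRpL39 each in 8 and 4, and mRpL22, whose bacterial counterpart lines the peptide tunnel, in 7 and 4. mRpL37 (5 and 4 lists), mRpL35 (7 and 2), mRpL41 (6 and 3), mRpL50 (6 and 1) and mRpL11 (5 and 2) also reached 5 anti-FLAG lists.

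Among small subunit genes, mRpS7 had the most lists. Its bacterial counterpart organises the head of the small subunit. It was in 4 of 5 lists of each construct with anti-FLAG and in 4 of 4 of each with anti-HMR. Its anti-FLAG places were 38.0, 60.5, 65.3 and 49.7 in HMRdC-tg, against 40.1, 52.4, 29.3 and 35.3 in HMRwt-tg, where the groups overlapped. With anti-HMR the places were 11.1, 14.3, 70.8 and 22.7 in HMRdC-tg, against 6.83, 38.7, 9.10 and 47.7 in HMRwt-tg. The midpoints lay from 56 to 390 bp upstream of mRpS7, and in 14 of 16 lists they were nearer to the start of Cdk1, the mitotic kinase gene that begins 400 bp away on the other strand.

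mRpS6 was found in 5 of 5 HMRdC-tg and 4 of 5 HMRwt-tg anti-FLAG lists, and in 4 of 4 HMRdC-tg and 2 of 4 HMRwt-tg anti-HMR lists. In 11 of its 15 lists the midpoint was nearer to the start of Cip4, 448 bp away. mRpS16 had 5 HMRdC-tg and 4 HMRwt-tg lists with anti-FLAG, and 2 HMRdC-tg and 3 HMRwt-tg lists with anti-HMR, at anti-FLAG places of 7.59 to 59.5. mRpS11 had 7 anti-FLAG and 3 anti-HMR lists, as had mRpS14, mRpS26 and mRpS30. mRpS17 (6 and 2) and mRpS18A (5 and 2) completed the small subunit genes with at least 5 anti-FLAG lists, together with mRpS21, which is described with the antibodies.

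**Figure D2:**
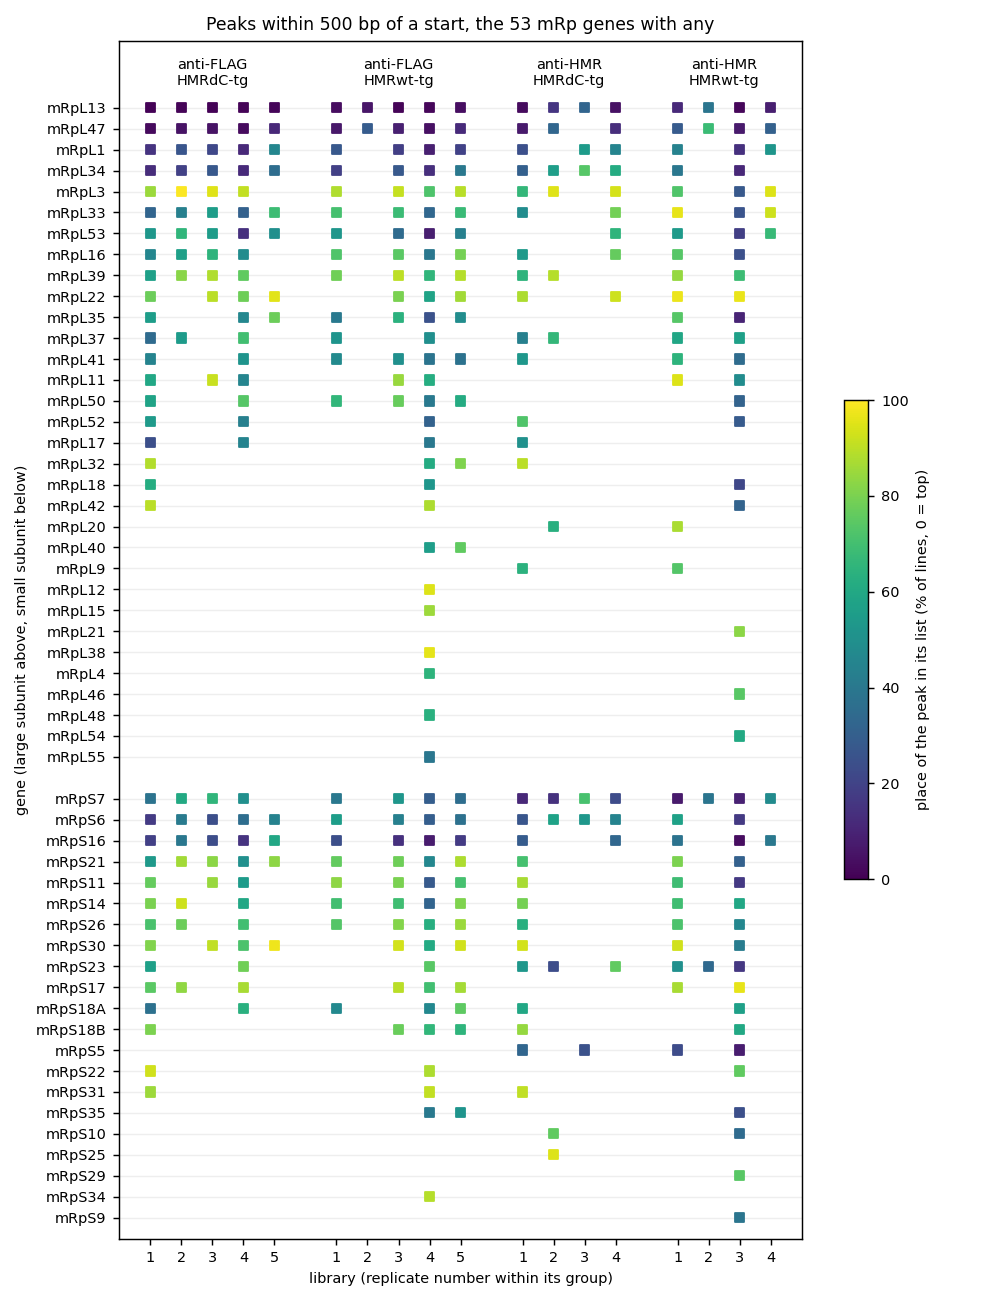
Peaks within 500 bp of a start for the 53 mRp genes with any, each row a gene (large subunit above, small subunit below, ordered by number of lists) and each column a library by antibody and construct. The colour gives the place of the peak in its list, from 0 (top of the list, dark) to 100 (bottom, yellow), and blanks are lists without a peak. mRpL13 fills all 18 columns, with dark squares in the anti-FLAG lists and places of up to 38.8 in the anti-HMR lists, mRpL3 has bright squares in most lists, and 12 genes have their single peak in anti-FLAG HMRwt-tg replicate 4 or anti-HMR HMRwt-tg replicate 3.

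At the other end of the range, 13 members (17.8%) had a peak in a single list, against 9.1% of all protein-coding genes. Of these, 7 were in anti-FLAG HMRwt-tg replicate 4 (mRpL4, mRpL12, mRpL15, mRpL38, mRpL48, mRpL55 and mRpS34) and 5 in anti-HMR HMRwt-tg replicate 3 (mRpL21, mRpL46, mRpL54, mRpS9 and mRpS29). These were the longest lists of their antibodies and came from the same chromatin, and together they held 12 of the 13 members and 83.1% of all protein-coding genes found in a single list. The last, mRpS25, was in anti-HMR HMRdC-tg replicate 2.

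The 20 members without a peak in any list were mRpL2, mRpL10, mRpL14, mRpL19, mRpL23, mRpL24, mRpL27, mRpL28, mRpL30, mRpL36, mRpL43, mRpL44, mRpL45, mRpL49, mRpL51, mRpS2, mRpS18C, mRpS24, mRpS28 and mRpS33. They included counterparts of proteins at the functional core, such as mRpL2, next to the peptidyl transferase centre in bacteria. mRpL27 belonged to them by the limit of 500 bp only. It had a peak in 17 of 18 lists whose edge lay 627 to 674 bp downstream of its nearest start, and the protein-coding start closest to the midpoint of that peak was in every case that of RpL27A, a cytosolic ribosomal protein gene, 464 to 512 bp away. By the median edge distance, the other members nearest to the limit on its outer side were mRpS25 and mRpL45. mRpS25 had 502 bp (296 to 570 bp) over 3 lists, 1 of them within 500 bp, and mRpL45 802 bp in 1 list. Members further outside the limit are not listed. Just inside it were mRpS29 (492 bp, 1 list) and mRpL46 (442 bp, 1 list). mRpL54 came next by its median of 420 bp alone, since its peak was at 0 bp in 1 list and at 839 bp in another.

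The members shared a feature that the choice by symbol had not used. Of the 73 members, 54 (74.0%) had the start of another protein-coding gene within 500 bp of one of their own, against 30.8% of all protein-coding genes. In 53 members (72.6%, against 27.3%) such a start lay head to head, on the opposite strand and pointing away. Genes with another start close by were called more often whether or not they were members. Within this class, 23 of 54 members (42.6%) had a peak in at least 5 anti-FLAG lists, against 34.4% of all protein-coding genes of the class, and 14 of 54 (25.9%), against 22.5%, in at least 4 anti-HMR lists. Without another start within 500 bp, 2 of 19 members (10.5%) were called with anti-FLAG, against 13.2% of all such genes, and 2 of 19 (10.5%), against 9.87%, with anti-HMR. With anti-FLAG, members lay 14.5 percentage points above all protein-coding genes before the split, 8.2 points above them with another start close by, and -2.7 points from them without. These differences hold for the limit of at least 5 lists. Of the 19 members without another start, 7 (36.8%) had no peak in any list, against 68.8% of all such genes. With another start close by, 13 of 54 members (24.1%) had none, against 30.7%. The part of the neighbouring genes in the members' peaks was not tested.

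**Figure D3:**
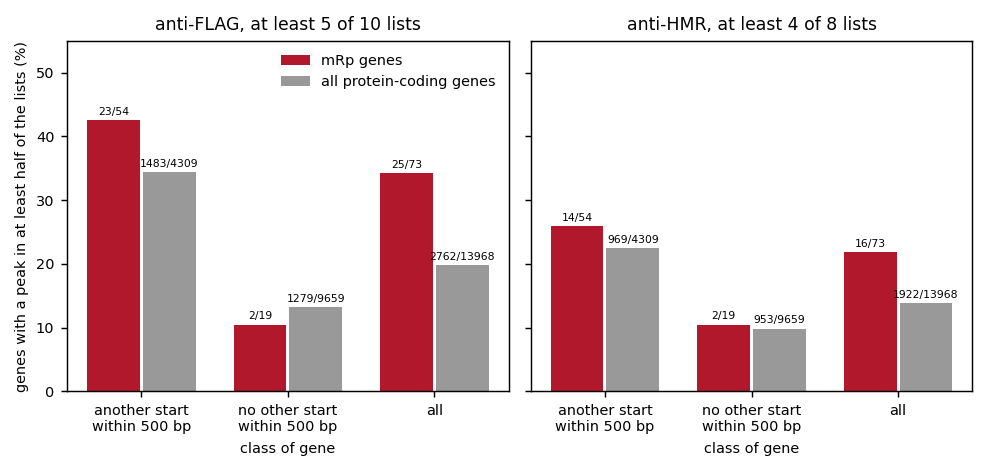
Percent of the mRp genes (red) and of all protein-coding genes (grey) with a peak in at least 5 of 10 anti-FLAG lists (left) or at least 4 of 8 anti-HMR lists (right), for genes with another protein-coding start within 500 bp, for those without, and for all. Counts stand above the bars. Red exceeds grey by more among all genes (34.2% and 19.8% with anti-FLAG) than within either class (42.6% and 34.4%, and 10.5% and 13.2%).

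Peak positions were set beside these neighbouring starts. At the 25 members called with anti-FLAG, the median midpoint lay 73 bp upstream of the start (quartiles 254 and 50 bp upstream), against 76 bp upstream (quartiles 200 and 44 bp) at all 2762 genes called. The midpoint was upstream at 24 of 25 members (96.0%) and at 95.7% of all called genes. Of the 23 called members with another start close by, 10 had the peak nearer to that start than to their own in most lists with a peak. Over all members with such a neighbour, the peak was nearer to the other gene in 152 of 322 pairs of a member and a list (47.2%). Examples are mRpL34 beside Dg, which codes for dystroglycan, and mRpL33 beside norpA, which codes for a phospholipase C of vision, each in 14 lists, and mRpL16 beside trr, which codes for a histone methyltransferase, in 10 of 12. mRpL1, mRpL22, mRpL50 and mRpS17 had the peak nearer to their own start in every list with a peak. mRpL13 (18 lists) and mRpL53 (13 lists) share a start position with another gene, so their peaks can never be nearer to the other start. Both are among the 23 members, and their lists are among the 322 pairs, which lowers the share of 47.2%. No peak lay within 500 bp of the starts of more than 1 member.

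**Figure D4:**
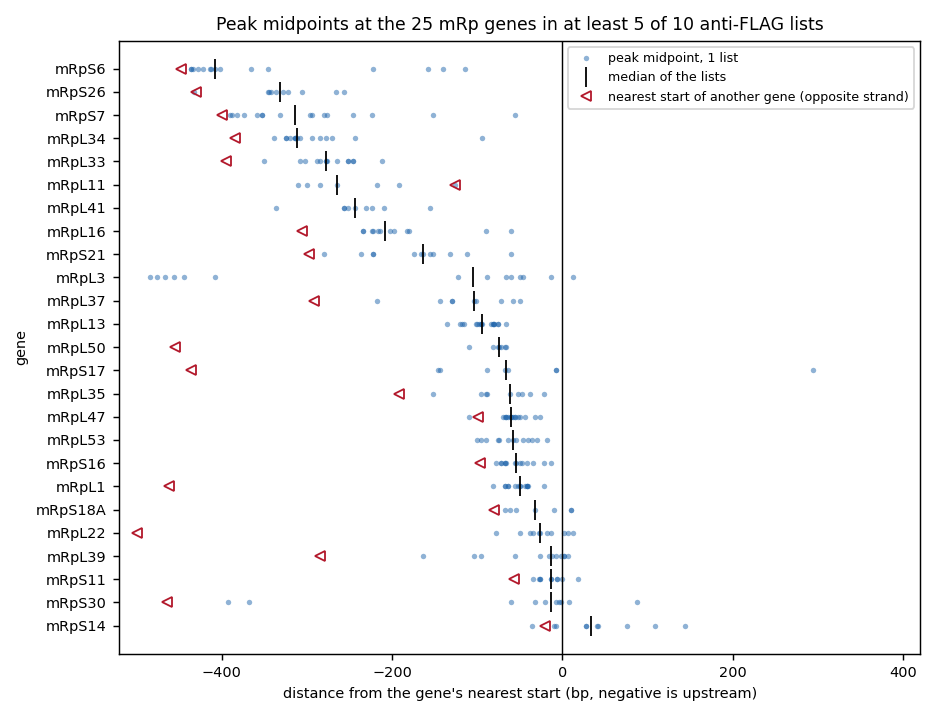
Midpoints of the peaks at the 25 mRp genes with a peak in at least 5 of 10 anti-FLAG lists, in bp from the gene's nearest start (vertical line, negative is upstream), with 1 point for each of the 18 lists with a peak, a tick for the median and a red triangle for the nearest start of another gene where that gene lies on the opposite strand. Medians run from 408 bp upstream at mRpS6, beside the start of its neighbour, to 34 bp downstream at mRpS14, and the points of mRpL3 form 2 clusters.

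In the order of the lists, the members' peaks stood near the middle. The median place of the called members in the anti-FLAG lists was 53.9, against 47.4 for all called genes, and in the anti-HMR lists 44.0, against 42.3. The extremes were mRpL13 at a mean anti-FLAG place of 1.96 and mRpL3 at 88.9. By chromosome, 6 of 11 members on X (54.5%) were called with anti-FLAG, against 23.4% of all genes on X, and 5 of 12 on 2R (41.7%, against 19.5%), 8 of 21 on 3R (38.1%, against 18.9%), 4 of 17 on 3L (23.5%, against 19.6%) and 2 of 12 on 2L (16.7%, against 18%).

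The main comparison of the study, the truncated against the full-length protein, called no member. With anti-FLAG, 29.6% ± 12.4 of members had a peak in HMRdC-tg and 32.1% ± 20.1 in HMRwt-tg (SD, n = 5 each), a difference of -2.47 percentage points. With anti-HMR the shares were 20.2% ± 12.8 in HMRdC-tg and 26.7% ± 22.5 in HMRwt-tg (SD, n = 4 each), a difference of -6.51 points. The ranges overlapped in both antibodies, 16.4% to 46.6% in HMRdC-tg and 2.74% to 58.9% in HMRwt-tg with anti-FLAG, and both differences were smaller than the spread between replicates. Their sign was not stable. The anti-FLAG difference was -9.79 points without HMRwt-tg replicate 2 and 4.25 points without HMRwt-tg replicate 4, and the anti-HMR difference ran from -13.6 points without HMRwt-tg replicate 2 to 2.40 points without HMRwt-tg replicate 3.

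The background behaved alike. On average 18.3% of all protein-coding genes had a peak in HMRdC-tg and 19.4% in HMRwt-tg with anti-FLAG (p = 0.849), and 13.2% in HMRdC-tg and 16.5% in HMRwt-tg with anti-HMR (p = 0.686, exact two-sided permutation tests on 5 against 5 and 4 against 4 lists). The ratio of the members' share to that of all genes in the same list was 1.6 ± 0.14 in HMRdC-tg and 1.5 ± 0.41 in HMRwt-tg with anti-FLAG (SD, n = 5 each), and 1.5 ± 0.20 in HMRdC-tg and 1.5 ± 0.42 in HMRwt-tg with anti-HMR (SD, n = 4 each).

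Gene by gene, 43 members had a peak in at least 1 anti-FLAG list and 45 in at least 1 anti-HMR list. Fisher's exact test on the number of lists called 0 of the 43 members between the constructs with anti-FLAG at an adjusted p under 0.05 and 0 at an unadjusted p under 0.05, where the same test called 0% and 0.422% of the 4974 genes tested. With anti-HMR it called 0 of 45 members at either level, and 0% of 5257 genes. The smallest p of any member was 0.444 with anti-FLAG and 0.429 with anti-HMR. With anti-FLAG, 14 members had a peak in more HMRdC-tg lists, 18 in more HMRwt-tg lists and 11 in as many (29.0%, 35.4% and 35.6% over all genes tested). With anti-HMR, 6 members had a peak in more HMRdC-tg lists, 23 in more HMRwt-tg lists and 16 in as many (13.3%, 51.1% and 35.6%), beside 17.1%, 50.9% and 32.1% over all genes tested. No member differed by 3 lists or more with either antibody. Even a gene in all lists of one construct and none of the other would have an unadjusted Fisher's exact p of 0.00794 with 5 against 5 lists and 0.0286 with 4 against 4. A count of 0 after adjustment over all genes tested therefore says little about an effect of the construct. A change in peak height or a difference in a few lists would not be seen either.

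Between the antibodies, more members had a peak with anti-FLAG than with anti-HMR, by less than the spread between lists. The shares were 30.8% ± 15.8 with anti-FLAG (SD, n = 10) and 23.5% ± 17.3 with anti-HMR (SD, n = 8), a difference of 7.36 points, and 4.24 to 11.6 points with any 1 library left out. Within the 8 chromatin preparations used with both antibodies the mean difference was 8.39 points (SD 12.4). It was positive in 4 of 4 HMRdC-tg preparations (8.22, 6.85, 5.48 and 30.1 points) and in 2 of 4 HMRwt-tg preparations (5.48, 21.9, -8.22 and -2.74 points), a difference between constructs that was not tested. In the same preparations the difference over all protein-coding genes averaged 4.97 points, 7.33 in HMRdC-tg (positive in 4 of 4) and 2.61 in HMRwt-tg (positive in 3 of 4). Of the 25 members called with anti-FLAG, 14 (56%) were also called with anti-HMR, and these were 87.5% of the 16 called with anti-HMR. Over all protein-coding genes the same overlap was 59.1% of those called with anti-FLAG and 84.9% of those called with anti-HMR. The other 2 of the 16 members were mRpS5 and mRpS23.

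Fisher's exact test between 10 anti-FLAG and 8 anti-HMR lists called 0 of 53 members at an adjusted p under 0.05, where it called 0.533% of the 6000 genes tested. At an unadjusted p under 0.05 it called 1 member with more anti-FLAG lists and 1 with more anti-HMR lists, where it called 4.80% and 3.20% of the genes tested in these directions. The exact McNemar test over the 8 shared preparations called 0 members at either level, but 8 pairs cannot give a p below 0.00781, so that a count of 0 after adjustment over all genes says little. mRpS21 had a peak in 9 of 10 anti-FLAG lists (5 of 5 HMRdC-tg and 4 of 5 HMRwt-tg) and in 3 of 8 anti-HMR lists (p = 0.0430, Fisher's exact test). mRpS5 had a peak within 500 bp in 0 of 10 anti-FLAG lists, 2 of 4 anti-HMR HMRdC-tg lists and 2 of 4 anti-HMR HMRwt-tg lists (p = 0.0229, Fisher's exact test). The smallest adjusted p of any member was 0.457. mRpS5 lies in the centromere-proximal part of 3L (chr3L:24537236-24543534), with no other protein-coding start within 500 bp, and its peak midpoints were within 30 bp of a start. This contrast holds within 500 bp only. A peak with its edge 947 to 988 bp upstream of a start was present in 7 of the 10 anti-FLAG lists, and the 4 remaining anti-HMR lists had one at 958 to 1052 bp. Within 1000 bp, mRpS5 had a peak in 7 of 10 anti-FLAG and 7 of 8 anti-HMR lists (p = 0.588, Fisher's exact test). Its bacterial counterpart lies at the entry of the messenger channel. The anti-HMR lists with the mRpS5 peak were HMRdC-tg replicates 1 and 3 and HMRwt-tg replicates 1 and 3.

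Related genes, grouped by their symbols, were counted in the same way. Among cytosolic ribosomal protein genes, 61 of 92 (66.3%) had a peak in at least 5 anti-FLAG lists and 56 (60.9%) in at least 4 anti-HMR lists, where the mitochondrial set had 34.2% and 21.9%. Another start within 500 bp was present at 40.2% of the cytosolic set and at 74.0% of the members. Respiratory chain subunits reached 26 of 88 (29.5%) with either antibody. The respiratory set, taken by symbol, also holds genes with an added L in the symbol. COX4L, ND-20L and SdhAL among them had no peak in any list, while COX7AL2 had 9 anti-FLAG and 4 anti-HMR lists. The share without such genes was not computed. Mitochondrial import genes (Tim and Tom) reached 5 of 15 with anti-FLAG and 4 of 15 with anti-HMR. Genes that keep and transcribe the mitochondrial genome had 3 of 10 with anti-FLAG (PolrMT, the mitochondrial RNA polymerase, mtSSB and mtTFB1) and 2 of 10 with anti-HMR.

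Genes that work with the mitochondrial ribosome include factors and enzymes that charge its tRNAs. Of 9 mitochondrial translation factors, 2 were called with anti-FLAG, mEFTs (9 lists) and mIF2 (9 lists), and of 15 mitochondrial aminoacyl-tRNA synthetases 2, LeuRS-m (9 lists) and ArgRS-m (7 lists). A pair of mitochondrial ribosomal protein genes has other symbols. tko, which codes for the counterpart of the bacterial protein of the decoding centre, had a peak in all 10 anti-FLAG and all 8 anti-HMR lists, and bonsai in 0 of 18. With tko and bonsai added, 2 genes of the mitochondrial ribosome, mRpL13 and tko, had a peak in every list. No list was tested, and these counts describe the lists only.

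**Figure D5:**
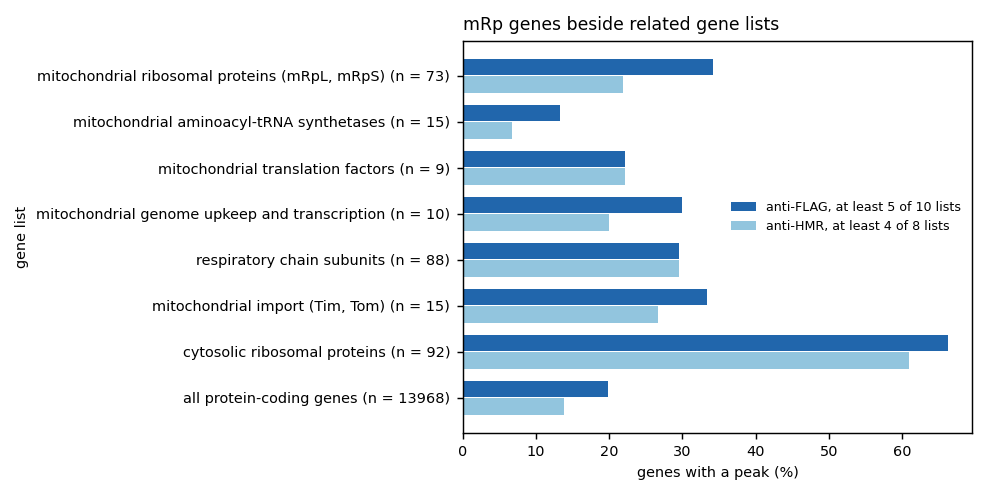
Percent of the genes of each list with a peak in at least 5 of 10 anti-FLAG lists (dark blue) or at least 4 of 8 anti-HMR lists (light blue), with the number of genes beside the name. mRp genes (34.2% and 21.9%) lie above all protein-coding genes (19.8% and 13.8%) and below the cytosolic ribosomal protein genes (66.3% and 60.9%). The respiratory chain subunits, a set taken by symbol, have 29.5% with both antibodies.

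Motifs were counted in the window from 250 bp before to 50 bp after the outermost start of each gene. CGATA, searched on both strands, was present at 43 of 73 members (58.9%) and at 47.3% of all protein-coding genes. It was present at 13 of 25 members called with anti-FLAG (52.0%) and at 13 of the 20 members without any peak (65.0%), whereas over all protein-coding genes the shares were 64.3% of those called and 38.7% of those in no list. TATCGATA (the DRE, each of which contains CGATA) was present at 15 members (20.5%, against 9.4% of all protein-coding genes). It was present at 4 of the 25 called (16.0%, against 17.7% of all called genes). Of the 20 members without a peak, 2 held it (10.0%, against 4.0% of all genes in no list). GGTCACAC was present at 8 members (11%, against 7.7%) and at 5 of the 25 called (20.0%, against 18% of all called genes). Of the 20 members without a peak, 1 held it (5.0%, against 2.4% of all genes in no list). GAGAG, the core of the GAGA factor site, was present at 12 members (16.4%, against 29.7%), and CACGTG, the E-box, at 5 (6.8%, against 4.2%). These matches describe letters in a window and are not measured sites.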

How the data were processed

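The deposited files analysed were 18 peak lists, each giving the positions of peaks as chromosome, start and end and no other value, so their unit is a position and not a signal. The authors' reads, single-end and 50 bp long, were aligned by Bowtie2 2.2.9 (build dm6), filtered at a mapping quality of 2 by SAMtools 1.3.1, and turned into peaks for each library by HOMER 4.9 in factor mode with F set to 2. Reads from repeats are thereby reduced. Depth in reads is unknown, and the list length, 465 to 9049 peaks, limits what a list can hold. Input libraries were not analysed here.

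Starts of protein-coding genes came from the Ensembl annotation, sequences from the RefSeq genome of the same build (dm6). All 13968 genes lay inside its chromosomes. Start positions of peaks were read as counted from 0 and are printed from 1. A gene had a peak where the nearest edge lay within 500 bp of any of its starts. At least 5 of 10 anti-FLAG lists were asked for, the number in the study's methods, and 4 of 8 anti-HMR lists. The study set that number for a peak, and here it was set for a gene. Different peaks near a gene could therefore add up, as at mRpL3. Numbers of lists were compared per gene by Fisher's exact test (two-sided) with Benjamini-Hochberg adjustment over all genes with a peak in at least 1 of the lists compared, at a threshold of 0.05. List lengths were compared by exact permutation. The scripts (Python 3.11.15, numpy 2.4.6, pandas 2.3.3, scipy 1.17.1) were tested on simulated data.

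Groups came from the construct and antibody in the labels. The labels' input identifier pairs 8 anti-FLAG with 8 anti-HMR libraries. Their deviations from the group means, over genes, correlated by -0.123 to 0.613. Nothing in the labels says that the preparations of a construct came from separate cell lines, so p-values measure the spread between these samples. Members and gene lists were chosen with earlier results of these data known. Named in full were at most 15 members, by number of lists, among those with at least 5 anti-FLAG or 4 anti-HMR lists, the others of these by name. Members that differed by 3 lists between constructs or by a share of 0.5 between antibodies, the 3 on either side of the distance limit, and those in no list were named too. Alternatives changed the distance, the start used, the number of lists asked for, the list length and the libraries included. The alternatives of the anti-HMR construct test, and the leaving out of single libraries from the antibody test, were chosen after seeing the data.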

Additional observations from a re-analysis of the deposited data

Results flagged for a closer look

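When every list was kept to its first 465 peaks, anti-HMR HMRwt-tg replicate 2 was set off from its 3 fellow replicates. It had 3 members with a peak (4.11% of the 73), and the others had 2 members each. With counts this small a single gene makes the difference. This screen for a library that stands apart covered 32 groups of values, and chance flags about 1 in 20 such groups.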

How the results depend on the processing

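Of 133 recomputed values, 125 stayed within the limits set for a change. These limits let the anti-FLAG difference between constructs change sign, from -2.47 points to 4.25 without HMRwt-tg replicate 4. They also let the anti-HMR count fall from 16 members to 11 without HMRdC-tg replicate 1. Many of the values are construct test counts of 0 that could hardly change, so the total says little about how firm the results are. With every list kept to its first 465 peaks, 4 members (mRpL13, mRpL34, mRpL47 and mRpS16) had a peak in at least 5 anti-FLAG lists and 2 (mRpL13 and mRpS7) in at least 4 anti-HMR lists. These lists hold fewer peaks by construction. With anti-FLAG, a single list then held on average 5.07% of members (SD 1.71, n = 10) and 3.71% of all protein-coding genes. With anti-HMR it held 2.91% of members (SD 1.36, n = 8) and 2.53% of all protein-coding genes. These are means per list and not shares in at least 5 or 4 lists. At that length 1 member passed the antibody test, mRpL47, with 10 of 10 anti-FLAG and 3 of 8 anti-HMR lists (Fisher's exact test, adjusted p = 0.0337), against an adjusted p of 0.816 in the full lists, and the cause was not tested. Over all protein-coding genes this test then called 244, against 32 in the full lists. Among the 19 members with no other start within 500 bp, 2 were called with anti-FLAG and 2 with anti-HMR. Asking for 8 of 10 anti-FLAG lists left 13 members (17.8%) and 12.9% of all protein-coding genes. With 1 library left out, the anti-FLAG count was 22 to 25 and the anti-HMR count 10 to 16, with 10 without HMRwt-tg replicate 1 and 10 without HMRwt-tg replicate 3. Members called between constructs stayed at 0 with any library left out, as did members called between antibodies. With so few lists per construct, the construct test could hardly give another count, so its steady 0 says little. The share of members in HMRdC-tg minus that in HMRwt-tg with anti-FLAG was 0.822 percentage points at equal length and 2.05 without the NEBNext libraries, where the full lists had -2.47. The replicate block over chromatin preparations gave 8.39 points for anti-FLAG minus anti-HMR and 0 members by the McNemar test at an adjusted p under 0.05, as without the block, while the 2 unadjusted calls, mRpS21 and mRpS5, were lost.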
